A study of Mus musculus with 48 samples.

Results

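The liver libraries of this series compared 2 opposite late changes of diet in old female C3B6F1 mice, a hybrid of 2 inbred laboratory strains. ALDR mice ate freely until 24 months of age and were then restricted, with the ration lowered in steps of 10% per week over 4 weeks. DRAL mice had been restricted from 12 weeks of age and were given free access to food from 24 months. A restricted ration was 60% of what freely fed mice ate. The 6 members were chosen by the tissue and diet in their labels, 3 ALDR and 3 DRAL livers of 48 libraries in the series, the rest of which came from white and brown fat. Both groups are labelled 26 months, while the protocol gives 27 months at death, and tissue was taken within 3 hours ahead of the restricted mice's usual mealtime. No liver of a mouse kept on 1 diet for life was analysed here, so each difference is between the 2 switched groups and does not show which of them moved. The current diet, the earlier diet and the time since the last meal cannot be told apart.

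The liver stores glucose as glycogen and fat as triglyceride after a meal, under insulin, and releases glucose and ketone bodies between meals, under glucagon and glucocorticoids. Insulin and cholesterol shortage act on lipid synthesis through the transcription factors SREBP-1c and SREBP-2, and fatty acids released from fat activate the receptor PPAR alpha, which drives fatty acid oxidation. The same cells make most plasma proteins, clear drugs and bile acids, and follow both the light cycle and the time of feeding through their clock genes.

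Library totals lay between 14678489 and 22893099 counts, at which 3 counts correspond to 0.131 to 0.204 CPM (read counts scaled to the library size), counting error only. Albumin and the other 7 hepatocyte markers were present in all libraries, with a summed level of 103800 to 140100 CPM, and all 5 kidney markers were at 0. Of these 8 genes, 2 were higher in ALDR. The call of Apoa1 was lost without ALDR 2, DRAL 2 or DRAL 3 (adjusted p 0.0513 to 0.0723) and that of Alb without any 1 of the 6 libraries (0.0528 to 0.129). Counts of 15 heart muscle genes summed to 338.2, 0.893 and 263.4 CPM in ALDR 1 to 3 and to 257.8, 200.9 and 0.541 CPM in DRAL 1 to 3. The same 4 libraries held 11 to 20 counts of Y-chromosome genes although the mice were female, and the other two held none. Across genes, the deviations of the 2 libraries without these counts, ALDR 2 and DRAL 3, correlated at 0.64 with each other. Each group thus held 2 libraries with the trace and 1 without. None of the 12 heart genes tested was called (edgeR adjusted p 0.772 to 0.991, and 0 of 12 had an unadjusted p under 0.05). Their spread within groups was wide, with an SE of 1.35 for Myh6. The test could therefore hardly have called them and does not show that the trace was equal between groups. Among the other cell type lists, 4 genes were called, each the only one of its list. Spp1, listed for bile duct cells, was lower (-0.66 ± 0.18, adjusted p = 0.0237) and Dcn, listed for stellate cells and fibroblasts, was higher (0.45 ± 0.11, adjusted p = 0.0152). Both calls were lost without ALDR 1 (adjusted p = 0.0748 and 0.0593) and without DRAL 3 (0.084 and 0.0534). Cela1, listed for exocrine pancreas, read 2.36, 3.01 and 2.88 CPM in ALDR and 5.93, 4.98 and 5.35 CPM in DRAL and was lower (-0.97 ± 0.20, adjusted p = 0.00661), and 5 of the 8 genes of that list were at 0. Their part in the results below was not tested. Marco, a macrophage gene, was at 1.14, 2.63 and 19.7 CPM in ALDR and 1.11, 1.29 and 1.26 CPM in DRAL, and its call was lost without ALDR 3 (adjusted p = 0.305) and without each of DRAL 1, 2 and 3 (0.0884, 0.127 and 0.113). Fewer cells of a type and less RNA per cell cannot be told apart in such bulk samples.

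Of 12761 genes tested, 3038 (23.8%) passed an edgeR quasi-likelihood test at a Benjamini-Hochberg adjusted p under 0.05. ALDR was higher in 1386 of them (10.9%) and lower in 1652 (12.9%). These percentages are the background for every count below, and levels are given as CPM for replicates 1, 2 and 3 in that order, with log2 fold changes of ALDR over DRAL ± SE. The median log2 fold change was -0.0048 over all genes tested and its median size over the called genes was 0.67. The libraries of the groups did not overlap in 5288 genes (41.4%). With the heart gene level as a covariate, 3034 of the 3038 calls were made again in the same direction, and in the 4 libraries with Y-chromosome counts, 2 per group, 1644 were. The trace was split alike in both groups, so this covariate could hardly remove a call. The 4-library fit had fewer replicates, so neither number shows what the trace contributed. When libraries were scaled by their totals alone, 35.6% of called genes were higher in ALDR in place of 45.6%.

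**Figure D1:**
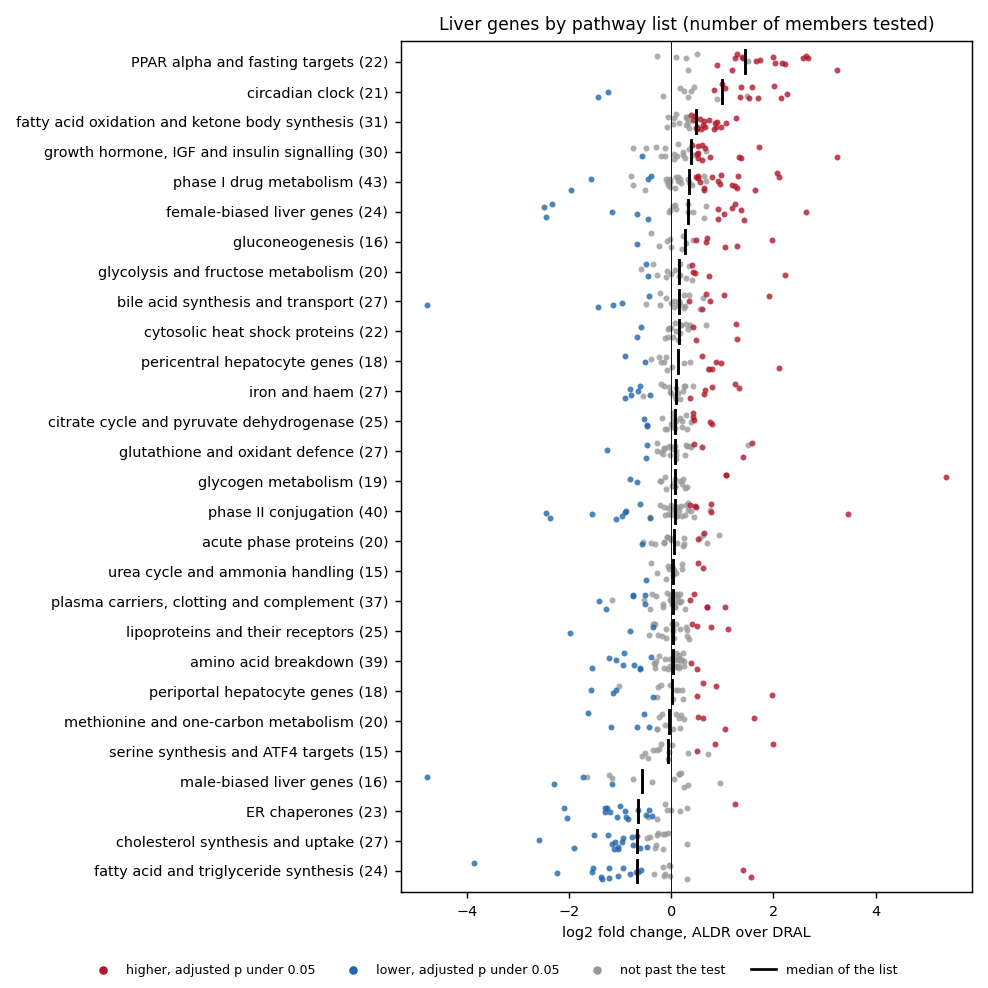
Log2 fold change of ALDR over DRAL (x axis) for every tested member of the 28 pathway lists (y axis, number of members tested in brackets), one point per gene, with the list median as a bar. Lists of PPAR alpha and fasting targets, clock genes and fatty acid oxidation lie to the right, and lists of ER chaperones, cholesterol synthesis and fat synthesis lie to the left.

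The 28 lists share some genes, and their members are described by counts and medians. The plot of fold changes by list shows the extremes at both ends. Of 22 tested PPAR alpha and fasting targets, 16 were higher and 0 lower, with a median log2 fold change of 1.45. Of 24 genes of fatty acid and triglyceride synthesis, 14 were lower and 2 higher, with a median of -0.67.

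Several genes of glucose release were higher in ALDR. Of 16 gluconeogenesis genes, 6 were higher and 1 lower (0 lower without ALDR 1, DRAL 1, DRAL 2 or DRAL 3), against 10.9% and 12.9% of all genes. Pck1 (ENSMUSG00000027513, chr2:173153048-173159273 on the plus strand, GRCm38) encodes the cytosolic carboxykinase that commits oxaloacetate to glucose, and it stood at 3725, 4802 and 4435 CPM in ALDR and 1889, 894 and 535 CPM in DRAL, a log2 fold change of 1.97 ± 0.37 (adjusted p = 0.00454). All 3 ALDR livers lay above the highest DRAL liver, and DRAL 1 was the highest of its group. G6pc, the phosphatase that frees glucose from glucose 6-phosphate, was at 805, 953 and 882 CPM in ALDR and 542, 357 and 374 CPM in DRAL and differed (1.05 ± 0.16, adjusted p = 0.0019). Its partner Slc37a4, which carries glucose 6-phosphate into the ER, differed (0.71 ± 0.12, adjusted p = 0.00256), and Ppargc1a, a coactivator of the fasting response, too (1.29 ± 0.26, adjusted p = 0.00705). Fbp1, the bisphosphatase between them, read 1327, 1588 and 1488 CPM in ALDR and 1187, 1279 and 1274 CPM in DRAL and did not pass (0.24 ± 0.11, adjusted p = 0.157).

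Most glycogen genes did not pass. Of 19 members, 3 were higher and 2 lower, a called share of 26.3% near the 23.8% of all genes. Gys2, liver glycogen synthase, read 205, 220.4 and 179 CPM in ALDR and 100.1, 95.9 and 90.4 CPM in DRAL and was higher (1.08 ± 0.11, adjusted p = 0.000265). Ppp1r3g, which directs a phosphatase to glycogen, was at 15.6, 24.9 and 17.7 CPM in ALDR and 0.635, 0.429 and 0.3 CPM in DRAL. Ppp1r3c, another such targeting subunit, was lower (-0.81 ± 0.17, adjusted p = 0.0088). Pygl, the phosphorylase that breaks glycogen down, read 350.2, 385 and 383 CPM in ALDR and 567, 588 and 623 CPM in DRAL and was lower (-0.67 ± 0.10, adjusted p = 0.00175). The synthase was thus higher and the phosphorylase lower in ALDR, with no overlap of the groups in either gene.

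**Figure D2:**
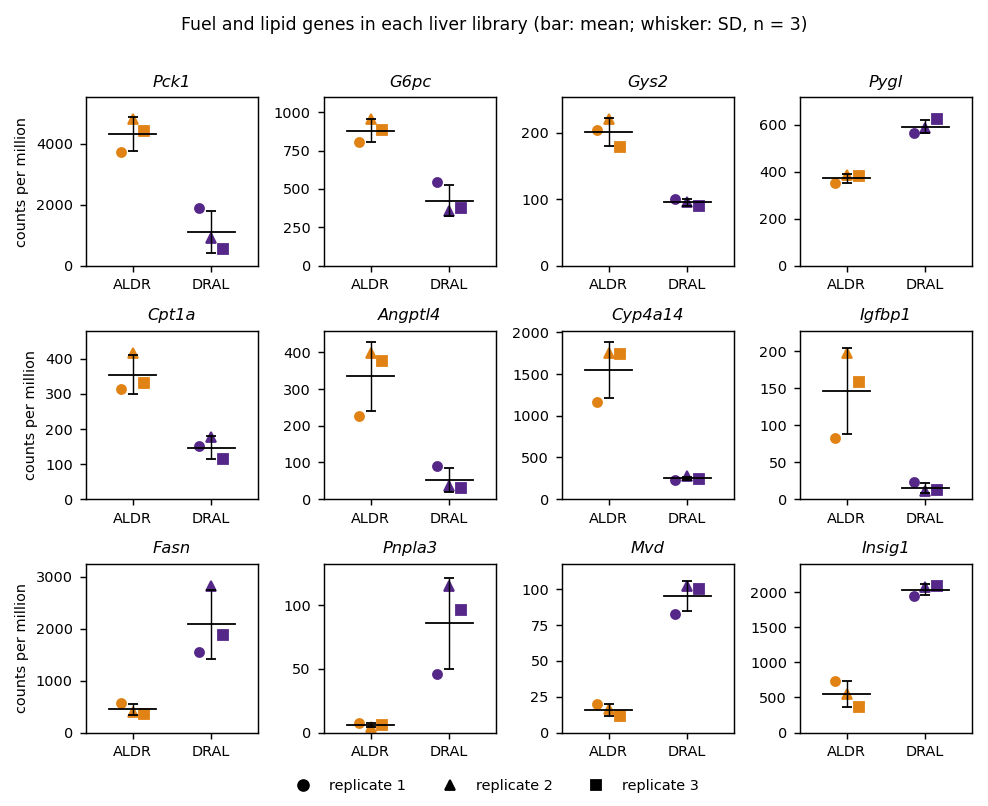
CPM (y axis, starting at 0) of 12 genes of fuel and lipid metabolism in the 3 ALDR and 3 DRAL livers, one symbol per replicate, with the mean as a bar and the SD as a whisker (n = 3). In each panel the 2 groups do not overlap, with Pck1, G6pc, Gys2, Cpt1a, Angptl4, Cyp4a14 and Igfbp1 higher in ALDR and Pygl, Fasn, Pnpla3, Mvd and Insig1 lower.

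Glycolysis showed no single direction. Of 20 glycolysis and fructose genes, 5 were higher and 2 lower. Leaving out ALDR 1 or ALDR 2 gave 3 higher, and the number lower was 1 without ALDR 1 and without DRAL 3. Pklr, the liver pyruvate kinase, read 221, 156 and 195 CPM in ALDR and 201, 256 and 274 CPM in DRAL with overlapping groups (-0.36 ± 0.16, adjusted p = 0.125). Pdk4, the kinase that shuts pyruvate dehydrogenase, read 54.8, 151 and 225 CPM in ALDR and 21.8, 30.1 and 39.8 CPM in DRAL and was higher (2.24 ± 0.42, adjusted p = 0.00465). Pgam1, a mutase of glycolysis, was lower (-0.49 ± 0.11, adjusted p = 0.0106).

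Most genes of fat synthesis were lower in ALDR. Fasn, fatty acid synthase (ENSMUSG00000025153, chr11:120805846-120824547 on the minus strand, GRCm38), read 568, 402 and 365 CPM in ALDR and 1545, 2822 and 1887 CPM in DRAL and was lower (-2.23 ± 0.24, adjusted p = 0.000297). The lowest DRAL liver was above every ALDR liver. Acly, which supplies its acetyl-CoA, read 397, 334 and 299.8 CPM in ALDR and 818, 939.8 and 918 CPM in DRAL and was lower (-1.38 ± 0.13, adjusted p = 0.00017). Srebf1, which encodes SREBP-1c, was lower (-1.56 ± 0.23, adjusted p = 0.00135). Pnpla3, a lipid droplet protein that SREBP-1c induces, read 7.21, 4.7 and 5.91 CPM in ALDR and 45.8, 115 and 96.4 CPM in DRAL, with DRAL 1 the lowest of its group. It was lower (-3.86 ± 0.33, adjusted p = 9.47e-05). Scd1, the desaturase that makes oleate, read 8098, 8071 and 9288 CPM in ALDR and 11473, 18615 and 21948 CPM in DRAL and was lower (-1.03 ± 0.21, adjusted p = 0.00661). The 2 members that were higher, Lpin1 and Lpin2, encode phosphatidate phosphatases, and Lpin1 is itself a fasting gene. Lpin2 read 576, 610 and 597 CPM in ALDR and 223, 185 and 198 CPM in DRAL and was higher (1.56 ± 0.11, adjusted p = 4.97e-05).

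The cholesterol list moved the same way as the fat synthesis list. Of 27 genes of cholesterol synthesis and uptake, 16 were lower and 0 higher (1 higher without DRAL 2), with a median log2 fold change of -0.67. Mvd, which makes isopentenyl diphosphate (ENSMUSG00000006517, chr8:122433601-122443422 on the minus strand, GRCm38), read 19.6, 16.4 and 11.5 CPM in ALDR and 82.98, 102 and 100.3 CPM in DRAL and was lower (-2.59 ± 0.18, adjusted p = 4.97e-05). Sqle, the epoxidase that prepares squalene for ring closure, read 53, 50.02 and 34.2 CPM in ALDR and 136, 147 and 106 CPM in DRAL and was lower (-1.51 ± 0.18, adjusted p = 0.000476). Insig1, the ER protein that retains SREBP and is itself an SREBP target, read 738, 554 and 358 CPM in ALDR and 1949, 2084 and 2089 CPM in DRAL and was lower (-1.89 ± 0.22, adjusted p = 0.000433). ALDR 3 had the lowest value of all 6 livers in each of these 3 genes.

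**Figure D3:**
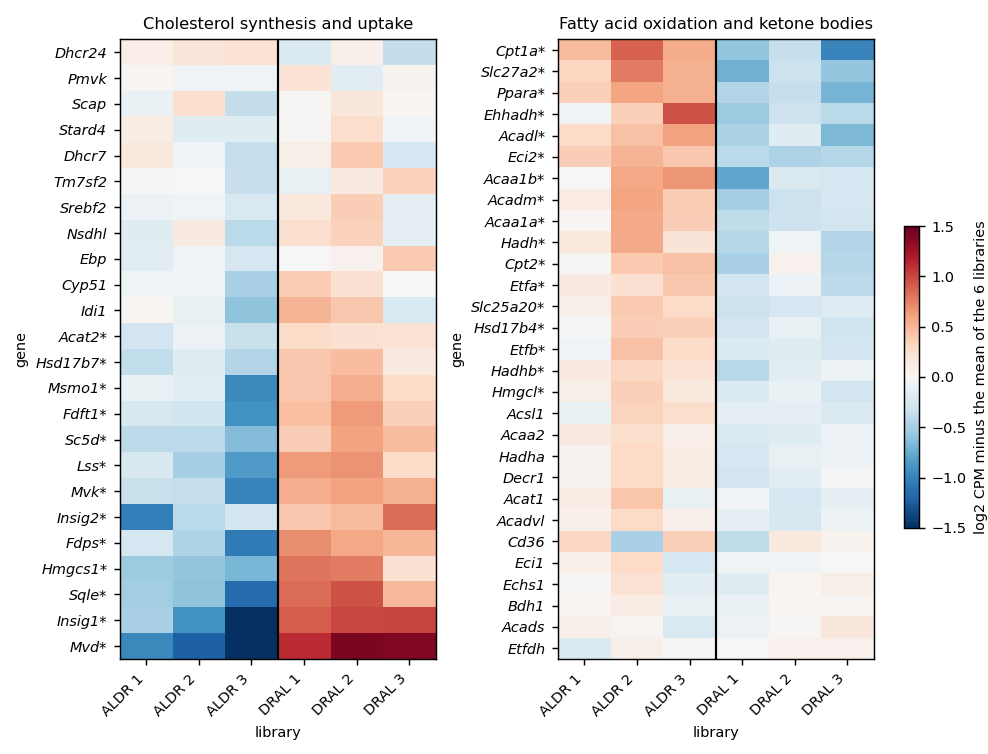
Level of 24 tested genes of cholesterol synthesis and uptake (left) and 29 of fatty acid oxidation and ketone body synthesis (right) in the 6 livers, as log2 CPM minus the mean of the 6 libraries. Colours stop at -1.5 and 1.5, rows follow the fold change, and an asterisk marks an adjusted p under 0.05; 13 of the genes shown on the left are lower in ALDR and 17 on the right are higher.

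Most genes of fat oxidation were higher in ALDR. Of 31 genes of fatty acid oxidation and ketone body synthesis, 19 were higher and 0 lower, with a median log2 fold change of 0.48. Cpt1a, which admits fatty acids to mitochondria, read 313, 417 and 332 CPM in ALDR and 151, 178 and 113 CPM in DRAL and was higher (1.27 ± 0.17, adjusted p = 0.000993). Ppara, the receptor gene itself, read 253, 298 and 287 CPM in ALDR and 147, 156 and 122 CPM in DRAL and was higher (0.98 ± 0.12, adjusted p = 0.000655). ALDR 1 was the lowest ALDR liver in both of these genes and lay above every DRAL liver. In the 4 libraries that carried Y-chromosome counts, 8 members passed.

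Among the PPAR alpha and fasting targets, the gene with the smallest adjusted p encodes a fatty acid hydroxylase. Cyp4a14 (ENSMUSG00000028715, chr4:115486200-115496142 on the minus strand, GRCm38), which hydroxylates the end carbon of fatty acids, read 1160, 1757 and 1736 CPM in ALDR and 232, 273 and 243 CPM in DRAL and was higher (2.64 ± 0.17, adjusted p = 4.64e-05). It has close paralogs, between which reads could be split. Angptl4, a secreted inhibitor of lipoprotein lipase, read 227, 399 and 377 CPM in ALDR and 90.6, 36.4 and 29.1 CPM in DRAL and was higher (2.68 ± 0.39, adjusted p = 0.00136). Txnip, which limits glucose uptake, read 252, 413 and 323 CPM in ALDR and 89.5, 66.3 and 62.1 CPM in DRAL and was higher (2.18 ± 0.20, adjusted p = 0.000136). Fgf21, a hormone of fasting and of amino acid shortage, spread widely, at 4.71, 10.1 and 14.5 CPM in ALDR and 4.29, 2.28 and 0.781 CPM in DRAL. The highest DRAL liver was close to the lowest ALDR liver, and its difference of 1.99 ± 0.51 (adjusted p = 0.0184) was lost without ALDR 3 (adjusted p = 0.0631) and without DRAL 2 (0.0727).

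Most enzymes of the citrate cycle did not pass. Of 25 genes, 5 were higher and 3 lower. The number higher was 2 without ALDR 1, 1 without DRAL 1, and 3 without ALDR 2, DRAL 2 or DRAL 3. Cs, the citrate synthase at the entry, read 54.1, 55.8 and 58.8 CPM in ALDR and 81.9, 84.5 and 78.6 CPM in DRAL and was lower (-0.54 ± 0.10, adjusted p = 0.0036). Ogdh, part of the 2-oxoglutarate dehydrogenase, read 89.3, 96.8 and 104 CPM in ALDR and 60, 61.9 and 43.4 CPM in DRAL and was higher (0.81 ± 0.14, adjusted p = 0.00336). Pdha1, a pyruvate dehydrogenase subunit, read 242, 245 and 198 CPM in ALDR and 207, 217 and 245 CPM in DRAL and did not pass (0.03 ± 0.12, adjusted p = 0.872).

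Most urea cycle genes did not pass the test. Of 15 tested, 2 were higher and 1 lower, the latter being the ornithine carrier Slc25a15, whose call was lost without ALDR 1 (adjusted p = 0.0667), DRAL 2 (0.0555) or DRAL 3 (0.0524). A second member was lower without ALDR 2, which made that number 2. Cps1, the entry enzyme, read 6936, 7984 and 6429 CPM in ALDR and 7009, 6552 and 7160 CPM in DRAL with overlapping groups (0.04 ± 0.12, adjusted p = 0.837). Ass1 also overlapped (0.09 ± 0.12, adjusted p = 0.621). Asl, the lyase after it, read 872, 1029 and 898 CPM in ALDR and 533, 565 and 710.3 CPM in DRAL and was higher (0.63 ± 0.13, adjusted p = 0.0086), with no overlap.

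Of 39 genes of amino acid breakdown, 28 did not pass, 9 were lower and 2 higher, against 12.9% and 10.9% of all genes. The median log2 fold change over the 39 was 0.03. None was higher without DRAL 2, and 1 was without ALDR 2, ALDR 3, DRAL 1 or DRAL 3. Amt and Gldc encode parts of the glycine cleavage system. Amt read 32.5, 34.1 and 22.9 CPM in ALDR and 77.7, 81.4 and 102 CPM in DRAL and was lower (-1.55 ± 0.17, adjusted p = 0.000309), and Gldc was lower (-0.94 ± 0.13, adjusted p = 0.000879). Hal, which opens histidine breakdown, read 263, 279 and 214 CPM in ALDR and 480.1, 524 and 599 CPM in DRAL and was lower (-1.08 ± 0.13, adjusted p = 0.000594). Kmo (-0.60 ± 0.12, adjusted p = 0.00619) and Kynu (-0.62 ± 0.11, adjusted p = 0.00409), of the kynurenine route of tryptophan breakdown, were lower. Tat, the tyrosine aminotransferase that glucocorticoids induce, read 412, 470.4 and 376 CPM in ALDR and 448, 523 and 407 CPM in DRAL with overlapping groups (-0.13 ± 0.13, adjusted p = 0.516), as did the serine dehydratase gene Sds (-0.03 ± 0.19, adjusted p = 0.937).

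Of 20 genes of methionine and one-carbon metabolism, 4 were higher and 5 lower, and the number lower was 3 without each of ALDR 1, ALDR 2, ALDR 3, DRAL 2 and DRAL 3. Bhmt, which remethylates homocysteine from betaine, read 2076, 4361 and 3134 CPM in ALDR and 7828, 9176 and 12475 CPM in DRAL and was lower (-1.62 ± 0.26, adjusted p = 0.00211). Cbs, which diverts homocysteine to cysteine, read 268, 281 and 275 CPM in ALDR and 638, 592 and 628 CPM in DRAL and was lower (-1.17 ± 0.10, adjusted p = 9.47e-05). Ahcy, which makes homocysteine from its adenosyl form, read 3373, 3415 and 3107 CPM in ALDR and 1875, 2032 and 2507 CPM in DRAL and was higher (0.63 ± 0.13, adjusted p = 0.00806). Mat2a, the methionine adenosyltransferase that most tissues use, was higher (1.05 ± 0.15, adjusted p = 0.00105), and its liver form Mat1a read 4910, 6060 and 5306 CPM in ALDR and 4639, 4334 and 4628 CPM in DRAL without passing (0.26 ± 0.12, adjusted p = 0.144). Of 21 serine synthesis and ATF4 target genes 15 were tested, and 3 were higher (1 without ALDR 2 and without DRAL 2) and 0 lower (1 without ALDR 1). Asns, Phgdh and Psat1 were too low to test, with 0 to 7, 3 to 9 and 5 to 22 counts per library.

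Most of the listed chaperone and stress genes of the endoplasmic reticulum (ER) were lower in ALDR. Secreted proteins fold in this compartment, and cells raise its chaperones through the unfolded protein response. Of 23 genes, 15 were lower, 1 was higher and 7 did not pass, with a median log2 fold change of -0.65. Hspa5, the main ER chaperone (BiP; ENSMUSG00000026864, chr2:34771970-34777547 on the plus strand, GRCm38), read 381, 359 and 378 CPM in ALDR and 928, 899 and 855 CPM in DRAL and was lower (-1.26 ± 0.10, adjusted p = 7.94e-05). The 2 groups were far apart in this gene, and the spread within each was small. Manf, a secreted ER protein, read 24.7, 24.1 and 18.8 CPM in ALDR and 115, 85.8 and 88.3 CPM in DRAL and was lower (-2.09 ± 0.15, adjusted p = 5.32e-05). Sdf2l1, a partner of Hspa5, read 6.8, 5.92 and 4.19 CPM in ALDR and 30.8, 17.9 and 20.1 CPM in DRAL and was lower (-2.03 ± 0.24, adjusted p = 0.000469). Xbp1, a transcription factor of the response, was lower (-0.65 ± 0.12, adjusted p = 0.00421). Herpud1, which serves the removal of misfolded proteins, was the 1 member called higher, at 522, 659.9 and 607 CPM in ALDR and 281, 279 and 194 CPM in DRAL (1.25 ± 0.16, adjusted p = 0.000687).

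Promoters of these genes are shown because several of the chaperones that were lower together hold the ER stress response element, the site through which ATF6 and XBP1 act with the factor NF-Y. The element was searched as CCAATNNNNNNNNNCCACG on both strands of the 300 bases from 250 before to 50 after each RefSeq start (GRCm38.p6). It was found in 8 of 19 ER chaperone genes with a promoter in the table (42.1%) and in 37 of 27025 genes of all kinds (0.137%). The windows below are the called ones, written 5′ to 3′ along the gene's strand with 20 bases on either side, all before the RefSeq start. Capitals mark the element, which reads CGTGGNNNNNNNNNATTGG where it lies on the opposite strand.
Hspa5 chr2:34772005-34772063 on the plus strand: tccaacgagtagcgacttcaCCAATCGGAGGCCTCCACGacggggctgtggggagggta
Calr chr8:84847055-84847113 on the minus strand: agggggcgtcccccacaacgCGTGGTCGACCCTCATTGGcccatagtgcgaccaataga
Creld2 chr15:88819500-88819558 on the plus strand: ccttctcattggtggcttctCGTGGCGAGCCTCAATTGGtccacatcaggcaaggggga
Pdia6 chr12:17266471-17266529 on the plus strand: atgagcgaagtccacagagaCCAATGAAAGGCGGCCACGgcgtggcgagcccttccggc
Hsp90b1 chr10:86705513-86705571 on the minus strand: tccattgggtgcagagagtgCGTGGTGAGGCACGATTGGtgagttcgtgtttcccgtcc
Hsp90b1 chr10:86705618-86705676 on the minus strand: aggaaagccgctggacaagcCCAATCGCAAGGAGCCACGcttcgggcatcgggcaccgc

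Among the 8 genes with the element, 5 were lower and 3 did not pass, with log2 fold changes from -1.29 to -0.07. Calr, a calcium-binding chaperone of glycoproteins, read 146, 141 and 138 CPM in ALDR and 418, 325 and 293 CPM in DRAL and was lower (-1.29 ± 0.14, adjusted p = 0.0003). Creld2, an ER protein of the stress response, was lower (-1.19 ± 0.11, adjusted p = 0.000186), and Pdia6, a disulfide isomerase, too (-0.85 ± 0.11, adjusted p = 0.000806). Hsp90b1, the ER form of Hsp90, holds 2 copies of the element and differed least of the 5 (-0.38 ± 0.11, adjusted p = 0.0299). That call was lost without ALDR 1 (adjusted p = 0.0799), ALDR 2 (0.0929), ALDR 3 (0.0649), DRAL 1 (0.075) and DRAL 2 (0.0986). Dnajc3 (-0.07), Canx (-0.28) and Syvn1 (-0.46) hold the element too and did not pass, although Syvn1 did without DRAL 3 (adjusted p = 0.0361) and with the heart covariate (0.0135), and Canx did with DESeq2 (0.0383), library totals (0.0284) and the heart covariate (0.0496). Of the 11 chaperone genes whose promoter lacks these letters, 7 were lower and 1 was higher. A match describes letters in a window and shows no binding.

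**Figure D4:**
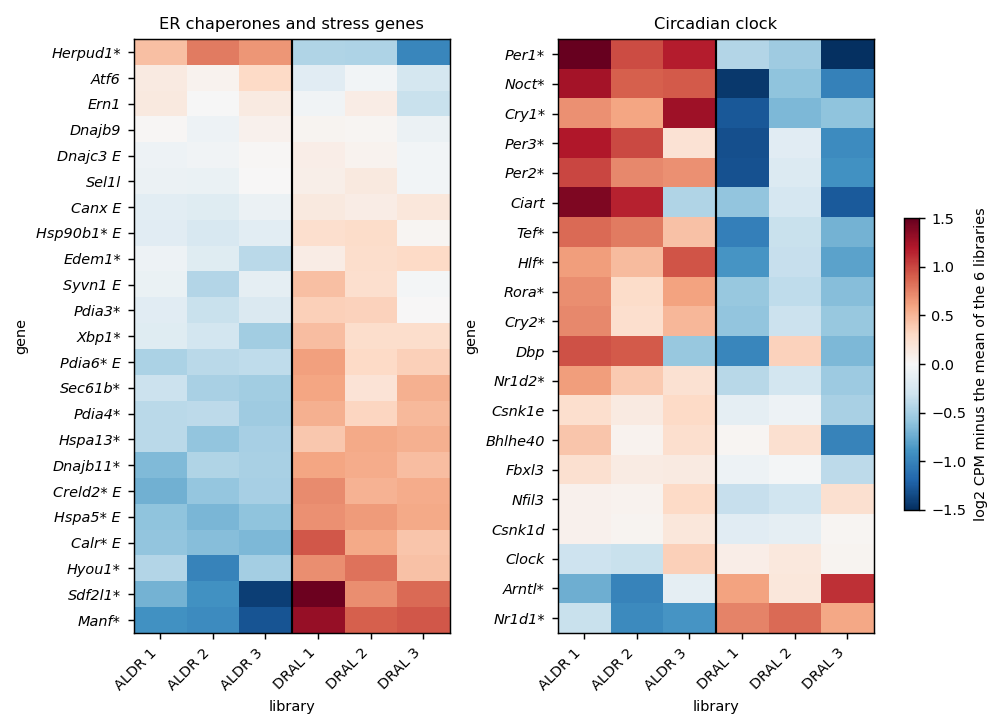
Level of each tested ER chaperone and stress gene (left, 23 genes) and of 20 clock genes (right) in the 6 livers, as log2 CPM minus the mean of the 6 libraries, with colours stopping at -1.5 and 1.5. Rows follow the fold change, an asterisk marks an adjusted p under 0.05, and E marks an ER stress response element; 15 chaperone genes are lower in ALDR, and 10 of the clock genes shown are higher and 2 lower.

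Most heat shock genes did not pass. Of 22, 4 were higher (2 without ALDR 1) and 2 lower, a called share of 27.3% near the 23.8% of all genes. The list is mainly of cytosolic proteins and also holds the mitochondrial chaperonins Hspd1 and Hspe1. Hspa1b, an inducible Hsp70 with a near-identical copy, read 58.5, 66.7 and 58.3 CPM in ALDR and 23.5, 24.3 and 27.5 CPM in DRAL and was higher (1.29 ± 0.11, adjusted p = 0.000104). Hspa4, an exchange factor of Hsp70, was lower (-0.58 ± 0.10, adjusted p = 0.00287). Hspa8, the constitutive Hsp70, read 3221, 3624 and 3508 CPM in ALDR and 2287, 3055 and 2930 CPM in DRAL and did not pass (0.32 ± 0.13, adjusted p = 0.107), though it did with DESeq2 (adjusted p = 0.0477).

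Clock genes differed in both directions. Of 21 tested, 11 were higher and 2 lower, with a median log2 fold change of 0.99. The 2 that were lower were Arntl and Nr1d1. Arntl encodes the BMAL1 activator and read 8.35, 6.96 and 12.6 CPM in ALDR and 21.02, 15.7 and 29.7 CPM in DRAL, lower (-1.24 ± 0.26, adjusted p = 0.00826). Nr1d1, the repressor REV-ERB alpha, read 4.98, 3.24 and 3.4 CPM in ALDR and 10.5, 11.3 and 9.37 CPM in DRAL and was lower (-1.44 ± 0.20, adjusted p = 0.000986). The genes that were higher included repressors of that activator and others that oscillate with them. Per2 read 50.6, 41.7 and 40.7 CPM in ALDR and 10.2, 21.98 and 13.5 CPM in DRAL and was higher (1.53 ± 0.24, adjusted p = 0.00179). Per1 read 20.7, 11.9 and 13.7 CPM in ALDR and 4.45, 4.16 and 0.781 CPM in DRAL and was higher (2.26 ± 0.44, adjusted p = 0.00543). Noct, a phosphatase with a strong daily rhythm, read 147, 115 and 117 CPM in ALDR and 22.7, 40.5 and 30.6 CPM in DRAL and was higher (2.01 ± 0.20, adjusted p = 0.000206). Dbp, an output gene of the clock, overlapped at 42.8, 41.6 and 14.8 CPM in ALDR and 11.2, 28.03 and 13.8 CPM in DRAL and did not pass (0.89 ± 0.41, adjusted p = 0.142), though it did without ALDR 3 (adjusted p = 0.0227).

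Clock genes are known for the E-box, where BMAL1 and CLOCK bind, and the D-box, where DBP and TEF bind. The E-box, CACGTG, was found in 5 of 18 clock genes with a promoter in the table (27.8%) and in 8.09% of all genes. Other lists had a like share, among them growth hormone and insulin signalling (26.9%), cholesterol synthesis and uptake (26.3%) and iron and haem (23.5%). Glycogen metabolism had 25%, and urea cycle and ammonia handling had a larger share than the clock list (3 of 10, 30%). Of the 5 clock genes, Per1, Cry1 and Tef were higher, Ciart, with 3 sites, did not pass (1.48 ± 0.52, adjusted p = 0.0611) except without ALDR 3 (adjusted p = 0.0156), and Bhlhe41 was not tested. The D-box, TTATGTAA, was found in 1 of 18 (5.56%), Per3, and in 1.11% of all genes. Male-biased liver genes (1 of 16, 6.25%) and ER chaperones (1 of 19, 5.26%) had a like share. The windows below show the E-boxes of Per1 and Cry1, which repress the clock activator, and the 2 D-boxes of Per3, with 20 bases on either side and the site in capitals.
Per1 chr11:69098763-69098808 on the plus strand: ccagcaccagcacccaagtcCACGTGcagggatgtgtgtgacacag
Cry1 chr10:85185089-85185134 on the minus strand: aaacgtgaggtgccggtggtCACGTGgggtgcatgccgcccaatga
Per3 chr4:151044796-151044843 on the minus strand: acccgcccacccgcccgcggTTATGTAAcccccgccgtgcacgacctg
Per3 chr4:151044843-151044890 on the minus strand: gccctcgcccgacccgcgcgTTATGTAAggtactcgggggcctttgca

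Cry1, a repressor of the clock activator, read 24.9, 23.3 and 37.3 CPM in ALDR and 6.41, 9.66 and 10.2 CPM in DRAL and was higher (1.70 ± 0.22, adjusted p = 0.000725). Per3, a period gene, read 55.3, 47.7 and 27.9 CPM in ALDR and 9.64, 21.3 and 12.5 CPM in DRAL and was higher (1.58 ± 0.30, adjusted p = 0.00507), a call lost in the 4 libraries with Y-chromosome counts (adjusted p = 0.0532). Tef, a D-box factor with E-boxes at 2 starts, was higher (1.36 ± 0.18, adjusted p = 0.000774). The tissue was taken in 1 window of the day, so a shift of phase and a change of mean level cannot be told apart.

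Insulin and growth signalling genes had more members higher than lower. Of 30, 13 were higher (8 without DRAL 3) and 1 lower (0 without ALDR 1, ALDR 3 or DRAL 2). Igfbp1, a binding protein that insulin represses (ENSMUSG00000020429, chr11:7197782-7202546 on the plus strand, GRCm38), read 83.3, 198 and 158 CPM in ALDR and 23.2, 10.9 and 12.3 CPM in DRAL and was higher (3.25 ± 0.35, adjusted p = 0.000322). Irs2, the adaptor of the insulin receptor, read 61.7, 60.5 and 41.2 CPM in ALDR and 17.6, 17.2 and 14.7 CPM in DRAL and was higher (1.72 ± 0.16, adjusted p = 0.00018). Foxo1, the factor that insulin excludes from the nucleus, was higher (1.32 ± 0.20, adjusted p = 0.00148), and so was Igfbp2 (1.36 ± 0.20, adjusted p = 0.00135). Igf1 itself read 368, 280.1 and 261 CPM in ALDR and 356, 379 and 303 CPM in DRAL with overlapping groups (-0.19 ± 0.15, adjusted p = 0.386).

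Of 43 phase I genes of drug metabolism, 17 were higher, 22 did not pass and 4 were lower (2 lower without ALDR 1 and without ALDR 3), with a median log2 fold change of 0.35. Por, the reductase that feeds electrons to the cytochromes P450, read 366, 492 and 357 CPM in ALDR and 82.6, 110.4 and 94.03 CPM in DRAL and was higher (2.08 ± 0.16, adjusted p = 7.05e-05). Nr1i3, the receptor CAR, read 675, 823 and 736 CPM in ALDR and 236, 236 and 239.6 CPM in DRAL and was higher (1.65 ± 0.11, adjusted p = 4.64e-05). Cyp2a5, a pericentral enzyme with a close paralog, read 1717, 1709 and 1427 CPM in ALDR and 239, 433 and 448 CPM in DRAL and was higher (2.11 ± 0.22, adjusted p = 0.000265). Cyp2b10, a classic target of CAR, overlapped at 13.2, 10.1 and 5.44 CPM in ALDR and 8.31, 15.7 and 23.97 CPM in DRAL and did not pass (-0.74 ± 0.38, adjusted p = 0.182), except without DRAL 1 (adjusted p = 0.0368). Cyp3a11, a target of PXR, overlapped between the groups as well (-0.52 ± 0.28, adjusted p = 0.208). Cyp2f2, a periportal enzyme, read 56.9, 52.7 and 91 CPM in ALDR and 208, 186 and 201 CPM in DRAL and was lower (-1.57 ± 0.19, adjusted p = 0.00052).

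Of 40 phase II genes, 6 were higher, 9 lower and 25 did not pass. The difference between the 2 classes was not tested. Sult1e1, the oestrogen sulphotransferase, read 10.04, 21.4 and 17.5 CPM in ALDR and 1.01, 1.97 and 1.38 CPM in DRAL and was higher (3.47 ± 0.32, adjusted p = 0.000158). Sult3a1, a sulphotransferase of female liver, read 66, 63.9 and 41.3 CPM in ALDR and 467, 222 and 248 CPM in DRAL and was lower (-2.45 ± 0.29, adjusted p = 0.000436). Of 27 oxidant defence genes, 4 were higher (2 without ALDR 2 and without ALDR 3) and 3 lower. Sod2, the mitochondrial superoxide dismutase, was higher (0.61 ± 0.10, adjusted p = 0.00272), and Srxn1, sulphiredoxin, lower (-1.25 ± 0.13, adjusted p = 0.000275). Cat, catalase, read 1267, 1405 and 1309 CPM in ALDR and 1335, 1431 and 1265 CPM in DRAL and overlapped (-0.02 ± 0.11, adjusted p = 0.927).

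**Figure D5:**
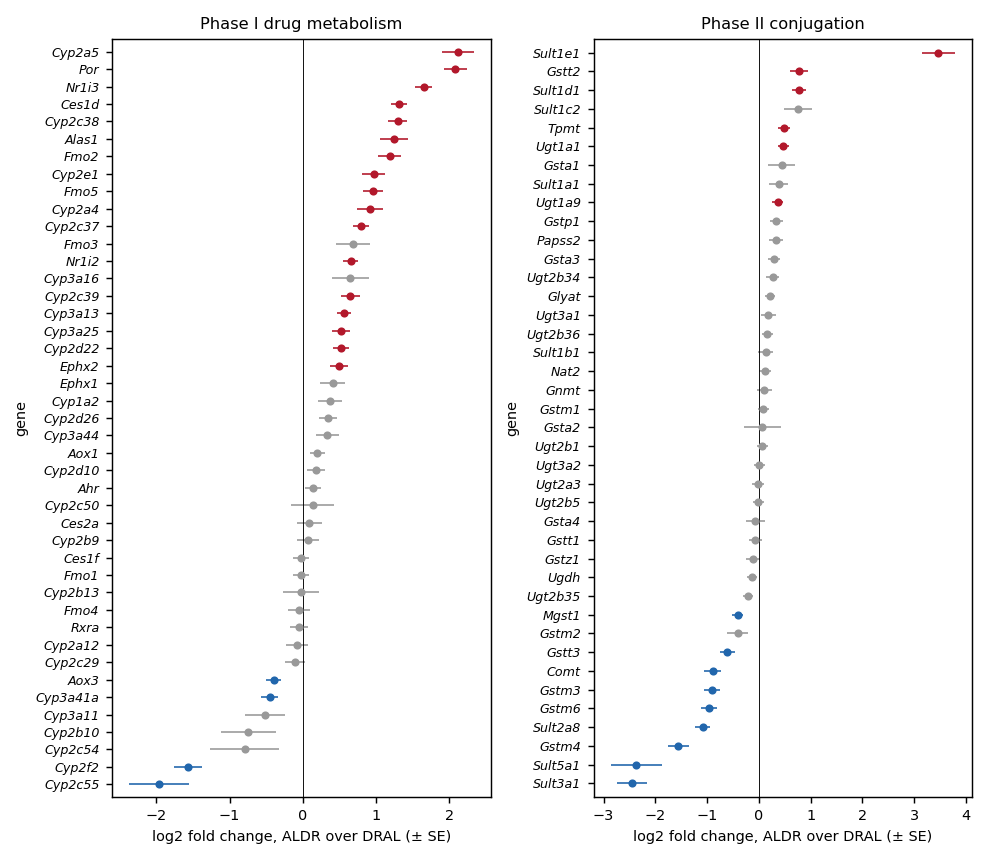
Log2 fold change of ALDR over DRAL with its SE (x axis) for each of 43 phase I genes (left) and 40 phase II genes (right), from 3 livers per group. Red genes are higher and blue genes lower at an adjusted p under 0.05, 17 and 4 on the left and 6 and 9 on the right, and grey genes did not pass.

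Bile acid genes held no common direction. Of 27, 6 were higher and 5 lower. Cyp7a1, the rate-limiting enzyme of synthesis, overlapped at 280.3, 526 and 240.1 CPM in ALDR and 210, 364 and 477 CPM in DRAL (-0.01 ± 0.32, adjusted p = 0.993). Cyp39a1, of the oxysterol branch, read 53.8, 40.3 and 48.3 CPM in ALDR and 14.9, 12.8 and 10.03 CPM in DRAL and was higher (1.91 ± 0.16, adjusted p = 0.000103). Abcb11, the export pump, read 649, 622 and 643 CPM in ALDR and 1121, 1238 and 1389 CPM in DRAL and was lower (-0.97 ± 0.11, adjusted p = 0.000467), and Hsd3b7, an early enzyme of the pathway, was lower (-1.43 ± 0.15, adjusted p = 0.000269).

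Of 37 plasma carriers, clotting and complement genes, 5 were higher and 6 lower. Those higher numbered 3 without each of ALDR 1, ALDR 2 and ALDR 3 and 2 without DRAL 3, and the number lower was 2 without ALDR 1. Rbp4, the carrier of retinol, read 314, 328 and 316 CPM in ALDR and 155, 170.1 and 136 CPM in DRAL and was higher (1.06 ± 0.11, adjusted p = 0.000289). Serpina7, the carrier of thyroxine, read 73.5, 67.2 and 65.7 CPM in ALDR and 217, 146 and 186 CPM in DRAL and was lower (-1.41 ± 0.15, adjusted p = 0.000265). Mbl1, a lectin of the complement system, was lower (-0.75 ± 0.12, adjusted p = 0.00209). Alb read 55107, 63044 and 55892 CPM in ALDR and 45575, 47090 and 41596 CPM in DRAL, a difference of 0.37 ± 0.12 (adjusted p = 0.0479) that was lost without any 1 of the 6 libraries (adjusted p 0.0528 to 0.129). C3 (0.12 ± 0.17, adjusted p = 0.646) and Fgb (-0.37 ± 0.18, adjusted p = 0.171) had overlapping groups.

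Of 20 acute phase genes, 2 were higher and 1 lower, and both numbers changed with single libraries. Without ALDR 2, DRAL 2 or DRAL 3 none was higher, 1 was higher without ALDR 3, and without ALDR 1, ALDR 2 or DRAL 1 none was lower. Saa1, a strong marker of inflammation, was low in all livers, at 0.269, 1.5 and 1.2 CPM in ALDR and 1.75, 0.901 and 0.421 CPM in DRAL (-0.01 ± 0.60, adjusted p = 0.994). Of 25 lipoprotein genes, 4 were higher and 3 lower (6 lower with DESeq2 or with library totals). The number higher was 2 without ALDR 2 or DRAL 3 and 1 without DRAL 2. Angptl8, an insulin-induced inhibitor of lipoprotein lipase in other tissues, read 40.6, 16.6 and 29.6 CPM in ALDR and 73.6, 137 and 127 CPM in DRAL and was lower (-1.97 ± 0.31, adjusted p = 0.00197). Lcat, which esterifies cholesterol on lipoproteins, read 96.6, 129 and 105 CPM in ALDR and 50.1, 62.4 and 38.99 CPM in DRAL and was higher (1.12 ± 0.17, adjusted p = 0.00183). Apob, the core protein of very-low-density lipoprotein, read 22163, 21800 and 24176 CPM in ALDR and 18420, 20554 and 15971 CPM in DRAL and did not pass (0.31 ± 0.13, adjusted p = 0.109), though it did with DESeq2 (adjusted p = 0.0342).

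Iron and haem genes were balanced, with 6 of 27 higher and 6 lower (3 lower without ALDR 3 and without DRAL 2). Alas1, the rate-limiting enzyme of haem synthesis, read 421, 659 and 643 CPM in ALDR and 298, 225 and 203 CPM in DRAL and was higher (1.25 ± 0.19, adjusted p = 0.00193). Uros and Ppox, which act later in that pathway, were lower, Uros (-0.91 ± 0.14, adjusted p = 0.00211) and Ppox (-0.81 ± 0.13, adjusted p = 0.0024). Slc40a1, the iron exporter ferroportin, was higher (0.67 ± 0.11, adjusted p = 0.00234). Hamp, the hormone that degrades it, overlapped at 109, 88.9 and 131 CPM in ALDR and 212, 139 and 129 CPM in DRAL (-0.54 ± 0.20, adjusted p = 0.0749). The Hamp difference did pass with DESeq2 (adjusted p = 0.0202), without a filter (0.0444) and with the heart covariate (0.0228).

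Sex-biased and zonal genes were examined because liver expression differs by sex and by place in the lobule. Of 24 female-biased genes, 8 were higher and 6 lower (3 lower without DRAL 3). A1bg, which female liver expresses, read 1445, 2015 and 1018 CPM in ALDR and 1938, 10172 and 10435 CPM in DRAL, and DRAL 1 lay with the ALDR livers and not with the other two of its group. Its difference was -2.33 ± 0.52 (adjusted p = 0.0101). Cux2, a regulator of the female pattern, overlapped at 35.6, 36.01 and 17.4 CPM in ALDR and 6.04, 18.6 and 9.49 CPM in DRAL and was called (1.37 ± 0.38, adjusted p = 0.0261), a call lost without ALDR 1 (adjusted p = 0.0851), ALDR 2 (0.0752) or DRAL 3 (0.0856). Of 24 male-biased genes 16 were tested, 0 were higher and 4 lower. Nudt7, a peroxisomal enzyme that cleaves coenzyme A, read 30.1, 33.3 and 25.3 CPM in ALDR and 181, 112 and 141 CPM in DRAL and was lower (-2.29 ± 0.18, adjusted p = 7.77e-05). Slco1a1, an anion carrier of male liver named after its values were seen, read 0.269, 0.329 and 0 CPM in ALDR and 12.5, 1.29 and 3.18 CPM in DRAL and was near or below the floor of 3 counts in ALDR.

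Both zones of the lobule held genes of either direction. Of 18 periportal genes, 4 were higher and 4 lower, and of 18 pericentral genes, 6 were higher and 2 lower (1 lower without ALDR 3). Among pericentral genes Cyp2e1, which oxidises ethanol, read 2007, 2013 and 1616 CPM in ALDR and 1138, 959 and 786 CPM in DRAL and was higher (0.97 ± 0.15, adjusted p = 0.00212). Glul, glutamine synthetase of the last row of cells, overlapped at 636, 793 and 508 CPM in ALDR and 937, 717 and 886 CPM in DRAL (-0.39 ± 0.17, adjusted p = 0.121), though it passed without ALDR 2 (adjusted p = 0.0411).

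Outside the lists, the genes with the smallest adjusted p were mixed in function. Unc79, a subunit of a sodium leak channel complex, read 8.89, 7.99 and 8.11 CPM in ALDR and 0.477, 0.172 and 0.24 CPM in DRAL, with DRAL near the floor of 3 counts. Maff, a small bZIP factor, read 16.5, 12.4 and 11.04 CPM in ALDR and 1.32, 1.55 and 1.02 CPM in DRAL and was higher (3.33 ± 0.23, adjusted p = 4.64e-05). Lgals4, a galectin, was higher (2.74 ± 0.20, adjusted p = 5.32e-05), and Gde1, a glycerophosphodiesterase, too (1.43 ± 0.10, adjusted p = 4.64e-05). On the lower side, Fabp5, a fatty acid binding protein, read 10.04, 10.9 and 6.96 CPM in ALDR and 108, 70.7 and 108 CPM in DRAL and was lower (-3.36 ± 0.21, adjusted p = 4.48e-05). Aacs, which activates acetoacetate for lipid synthesis, read 82.2, 60.98 and 84.04 CPM in ALDR and 320.2, 404 and 354 CPM in DRAL and was lower (-2.25 ± 0.15, adjusted p = 4.64e-05). Aqp8, a water channel, was lower (-2.46 ± 0.18, adjusted p = 5.32e-05), Tsc22d1, a transcription regulator, too (-2.04 ± 0.14, adjusted p = 4.64e-05), and Stra6l, a retinol transporter, too (-1.57 ± 0.12, adjusted p = 5.38e-05). The groups did not overlap in any of these genes, which the rule required.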

How the data were processed

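RNA of 6 livers was measured, per the labels' protocols, by stranded paired-end sequencing after ribosomal RNA depletion. The authors deposited whole-number read counts per Ensembl gene, not normalized. Reads were trimmed with Trim Galore 0.3.7 and aligned with TopHat2 2.0.14 to GRCm38, and DESeq2 was named, per the submitters' processing notes. The counting program, the annotation and any filter are not given in the sources used here. Symbols and coordinates came from GENCODE M21 (GRCm38), for 25012 of 25913 genes. Library totals and their precision stand in the report.

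Counts were filtered with filterByExpr, scaled by TMM and tested in edgeR 4.0.16 (R 4.3.3) by the quasi-likelihood test with Benjamini-Hochberg adjustment over 12761 genes, 3 ALDR against 3 DRAL libraries and no covariate. CPM use TMM-scaled library sizes. SE is the log2 fold change divided by the root of F. The procedure was tested on simulated data. Libraries of a group differed by a chi-square of at least 16.6 per degree of freedom, so none was a copy. The labels call them biological replicates.

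Members and lists were chosen with earlier results of these data known. Named genes are key genes of each list, up to 2 higher and 2 lower per list by adjusted p, and 10 higher and 10 lower overall whose groups do not overlap and whose log2 fold change is 1 or more in size. A few others illustrate a list or hold a motif, after their values were seen. Some genes that the rule selected are not reported here or shown by name in figures, and they remain in the fit and in the counts. Alternatives were DESeq2 1.42.0, 2 other scalings, no filter, a replicate block, a heart covariate, the libraries with Y-chromosome counts only, and leaving out each library. Promoter sequences are RefSeq's (GRCm38.p6), and 7 motifs were searched.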

Additional observations from a re-analysis of the deposited data

How the results depend on the processing

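The number of called genes was 3038 and ranged from 2050 to 2526 without 1 library, 925 to 1230 higher and 1113 to 1357 lower. It was 3071 with DESeq2, 3027 with DESeq2 size factors, 3068 with library totals, 3068 without a filter and 3594 with the heart score as a covariate. In the 4 libraries with Y-chromosome counts, 2 per group, 1712 genes were called, 848 higher and 864 lower. Numbers in the labels did not pair the livers: deviations of same-numbered libraries correlated at -0.421 to 0.229, and 0 of the 6 libraries correlated best with their own number. With the replicate number as a block 2028 genes were called, 931 higher and 1097 lower. Of 167 tested genes that the rule selected, 132 were called, 97 of them under every alternative and 108 without each library. Calls were lost in 35, gained in 13 and reversed while called in 0. In the 4 libraries alone 32 of the 132 did not pass, among them Scd1 (adjusted p = 0.0617), Pgam1 (0.0566), Ppp1r3c (0.0877), Arntl (0.0654) and A1bg (0.0515), and with the replicate block 14 did not. Of 68 counts of list members called in 1 direction, 30 moved by over 1.5 times in the 4-library fit (29 of them down) and 16 with the replicate block (15 down). The depth limits calls near 3 counts per library.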

Other observations

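Other gene groups were collected after their values had been seen, so their counts describe these libraries and support nothing. Major urinary proteins are pheromone carriers of mouse liver encoded by near-identical genes, among which reads can be split. Of 21 listed, 11 were tested, and 10 were lower in ALDR and 0 higher, against 12.9% and 10.9% of all genes, with a median log2 fold change of -1.89. Mup3 read 507, 625 and 589.6 CPM in ALDR and 2314, 1806 and 1593 CPM in DRAL and was lower (-1.73 ± 0.16, adjusted p = 0.000127), with every ALDR liver below every DRAL liver. Genes of protein entry into the ER and of COPII vesicles, which carry folded proteins out, had 20 of 41 lower and 2 higher, with a median of -0.31. Only 1 was higher without ALDR 2, ALDR 3, DRAL 1 or DRAL 2. Sec23b, a coat protein of those vesicles, read 36.1, 30.1 and 30.04 CPM in ALDR and 76.5, 87.4 and 89.9 CPM in DRAL and was lower (-1.40 ± 0.12, adjusted p = 9.47e-05). Srprb, part of the receptor that docks ribosomes, was lower (-0.93 ± 0.11, adjusted p = 0.00048).

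Of 38 proteasome subunits, 15 were lower (8 without ALDR 1 and 9 without DRAL 3) and 0 higher. Psmd14, the deubiquitinase of the regulatory particle, read 27.6, 29.3 and 27.7 CPM in ALDR and 51, 54.7 and 51.7 CPM in DRAL and was lower (-0.89 ± 0.10, adjusted p = 0.00033). Of 83 cytosolic ribosomal protein genes, 61 did not pass, 21 were higher and 1 lower, with a median of 0.21. The number higher was 11 without ALDR 2 and without ALDR 3, 12 without DRAL 1 and 7 without DRAL 2, and the number lower was 2 without DRAL 3. Of 76 mitochondrial ones, 58 did not pass, 17 were lower and 1 higher, with a median of -0.23. The called shares, 26.5% and 23.7%, were near the 23.8% of all genes, and the 2 lists were not tested against each other. The number of mitochondrial ones lower was 7 without ALDR 1, 5 without ALDR 3, 8 without DRAL 1, 10 without DRAL 2 and 5 without DRAL 3. Many cytosolic ribosomal genes have processed copies, between which reads can be split. Of 39 interferon-stimulated genes and immunity GTPases, 24 were lower and 0 higher, with a median of -0.76. Irgm1, one of these GTPases, read 39.9, 38.1 and 33.8 CPM in ALDR and 83.4, 94.7 and 95.5 CPM in DRAL and was lower (-1.29 ± 0.11, adjusted p = 0.000103).

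Other motifs were searched in the promoters of other lists. GAAANNGAAA, the core of the interferon-stimulated response element, was found in 17 of 29 genes of the interferon list (58.6%) and in 3.99% of all genes. The heat shock element, GAANNTTCNNGAA, was found in 4 of 17 heat shock genes (23.5%) and in 0.662% of all genes. Hspd1 and Hspe1 share the same sites between their starts, so these sites count in both genes, and Hspd1, Hspe1 and Chordc1 did not pass, while Hsph1 was higher (0.49 ± 0.16, adjusted p = 0.0497), a call lost without each library but DRAL 2 (adjusted p 0.0669 to 0.158). The sterol regulatory element and the peroxisome proliferator response element, each in 1 consensus form, were found in 0 of 19 cholesterol genes and 0 of 18 PPAR alpha and fasting targets, and in 0.0999% and 0.0481% of all genes.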
